A study of Bos taurus with 6 samples.

Results

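The miR-148 and miR-152 family was described in small RNA of extracellular vesicles (EVs) from bovine granulosa cells. Its members were taken by identifier, bta-miR-148a, bta-miR-148b and bta-miR-152, and were 3 of the 512 miRNAs listed for each library. Granulosa cells from small antral follicles of 3 to 6 mm, collected from slaughterhouse ovaries, were cultured for 24 h at 37 °C in medium with exosome-depleted fetal bovine serum. They were then kept at 37 °C (control-EVs) or moved to 42 °C, which is heat stress (HS-EVs), for a further 24 h, and EVs were precipitated from the spent medium with ExoQuick-TC. Each group had 3 libraries, which the labels number as replicates and the study calls biological, with no link to animals or cultures, so that p-values measure the spread between these libraries. No genotype or drug was used, and the serum in the medium was common to both groups.

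miRNAs are short RNAs that guide a silencing complex to messenger RNAs, and the bases near their 5′ end, the seed, decide most of the pairing. miR-148a, miR-148b and miR-152 share a seed and are known to repress DNMT1, the enzyme that copies DNA methylation onto newly made strands. miR-148a is also abundant in liver, in milk and in the vesicles of body fluids. RefSeq's annotation of ARS-UCD2.0, a later assembly than the reads were mapped to, places MIR148B within COPZ1 and MIR152 within COPZ2. These host genes are paralogs that encode zeta subunits of the COPI vesicle coat. MIR148A overlaps no protein-coding gene, with NFE2L3 among its neighbours. MIR148D overlaps MIR148A and MIR148C overlaps MIR152 in the same annotation, and bta-miR-148c and bta-miR-148d were not analysed here. As the mature members are nearly alike in sequence and the mapping tolerated a mismatch, reads could have been split between them, and the values of single members are uncertain to that extent.

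The deposited values are normalized read counts, put on a common scale by TMM, the trimmed mean of M-values. The reads behind them were recovered and numbered 274434 to 2360980 per library. In every library this is more than the study's own tally of reads on annotated miRNAs, by unequal factors and for a reason not given in the sources used here, so that the depth behind a value is uncertain. bta-miR-1246 took 59.9% to 84.6% of them in control-EVs and 75.6% to 98.6% in HS-EVs, and HS-EVs replicate 1 stood apart, with the highest share and 34141 reads on all other miRNAs against 73569 to 235634 in the other 5 libraries. As a check of the labelled cell type, bta-miR-202, a gonadal miRNA, averaged 1839 ± 151 normalized read counts (SD, n = 3) across control-EVs against 1525 ± 538 (SD, n = 3) across HS-EVs. The next of the 5 gonadal and granulosa markers by level, bta-miR-224 and bta-miR-132, had means of 77.1 and 48.2 over the 6 libraries. The remaining ones, bta-miR-383 and bta-miR-212, named after their values were seen, were at or near 0. The liver marker bta-miR-122 had a mean of 14996.5 over the 6 libraries, above the 1682 of bta-miR-202. The source of the RNA in the libraries was not tested. The granulosa cells themselves were not analysed here.

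bta-miR-148a was the most abundant member in every library. Replicates 1 to 3 of control-EVs held 1435, 3812 and 3181 normalized read counts of it, and those of HS-EVs held 1409, 1690 and 1299. Control-EVs replicates 2 and 3 were high, while control-EVs replicate 1 lay between the HS-EVs libraries, so that the groups overlapped. These values rest on 782, 5466 and 1610 recovered reads for control-EVs and on 343, 1536 and 797 for HS-EVs. Among all listed miRNAs, bta-miR-148a ranked 22, 12 and 12 by reads in replicates 1 to 3 of control-EVs, against 20, 19 and 22 for HS-EVs. It took 1.02%, 2.32% and 2.19% of the reads other than those of bta-miR-1246 in control-EVs and 1.00%, 1.24% and 0.919% in HS-EVs, a share that does not depend on the scaling between libraries.

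bta-miR-148b, the member hosted by COPZ1, had 285, 422 and 395 normalized read counts in control-EVs replicates 1 to 3. In HS-EVs replicates 1 to 3 it had 267, 340 and 311. Control-EVs replicates 2 and 3 were the highest of the 6 libraries, as for bta-miR-148a, control-EVs replicate 1 lay between HS-EVs libraries, and the groups overlapped. Between 65 and 605 reads lay behind each value, and the rank in the library was between 45 and 62.

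bta-miR-152, the member hosted by COPZ2, had 294, 299 and 227 normalized read counts in control-EVs replicates 1 to 3. In HS-EVs replicates 1 to 3 it had 292, 339 and 267. Its highest library was from HS-EVs and its lowest from control-EVs, and the groups overlapped in between. Between 71 and 429 reads lay behind each value, and the rank was between 55 and 61. All 3 members reached 10 normalized read counts, the study's limit for detection, in 3 of 3 libraries of each group.

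**Figure D1:**
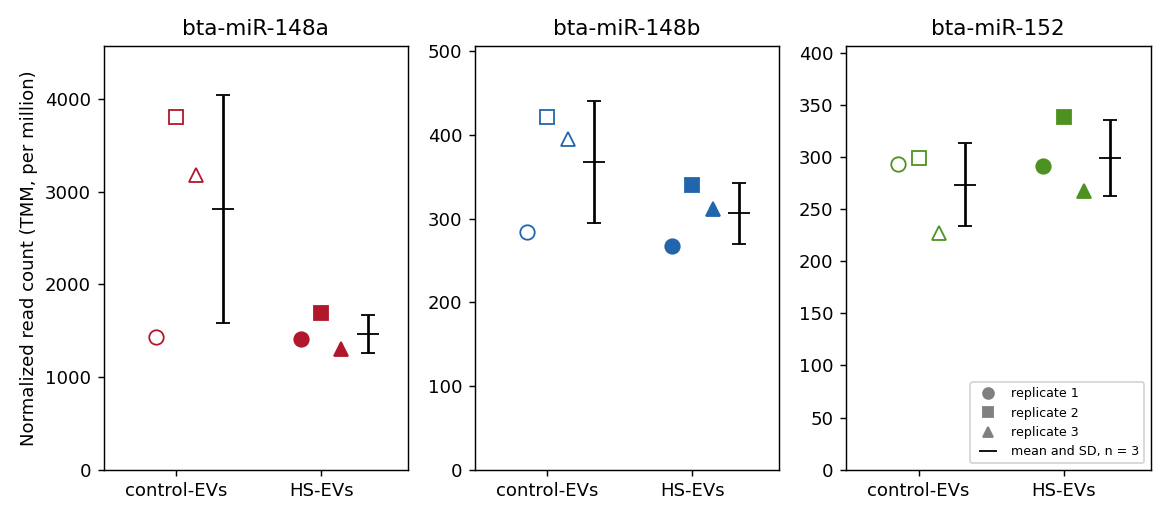
Normalized read counts (TMM scaling, linear axes from 0) of the members in each EV library, with open symbols for control-EVs, filled symbols for HS-EVs, a symbol shape per replicate number, and the mean with its SD (n = 3) beside each group. For bta-miR-148a, control-EVs replicates 2 and 3 (3812 and 3181) lie above the other 4 libraries (1299 to 1690), while bta-miR-152 lies between 227 and 339 in all 6.

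The comparison of HS-EVs with control-EVs asks whether heat stress of the cells went with another abundance of these miRNAs in the vesicles. bta-miR-148a had a lower mean in HS-EVs, 1466 ± 201 normalized read counts (SD, n = 3) against 2809 ± 1231 (SD, n = 3). On the log2 scale HS-EVs minus control-EVs was -0.83 (SE 0.50, 95% interval -1.95 to 0.29, adjusted p = 0.873 from limma with Benjamini-Hochberg adjustment over 512 miRNAs). The difference was thus not larger than the spread between libraries, and the interval reached from a level in HS-EVs of 0.259 times that of control-EVs to 1.22 times. The spread was unequal: the highest control-EVs library had 2.66 times the count of the lowest, and the highest HS-EVs library 1.30 times. A smaller amount in the vesicles that carry bta-miR-148a and a smaller number of such vesicles cannot be told apart in these bulk libraries.

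For bta-miR-148b the mean was 306 ± 36.7 normalized read counts (SD, n = 3) under heat stress against 367 ± 72.8 (SD, n = 3) at 37 °C. The log2 difference was -0.25 (SE 0.43, 95% interval -1.21 to 0.72, adjusted p = 0.892 from limma). For bta-miR-152 the mean was 299 ± 36.3 (SD, n = 3) under heat stress against 273 ± 40.0 (SD, n = 3) at 37 °C, and the log2 difference was 0.13 (SE 0.43, 95% interval -0.82 to 1.08, adjusted p = 0.953 from limma). For neither member was the difference larger than the spread. The intervals reached from 0.431 to 1.65 times the level of control-EVs for bta-miR-148b and from 0.568 to 2.12 times for bta-miR-152, which does not show equal levels. limma draws the spread of each miRNA towards that of all 512. These intervals are therefore wider than the own spread of bta-miR-148b and bta-miR-152 would give. The SDs of log2(normalized read count + 1) were 0.30 in control-EVs and 0.18 in HS-EVs for bta-miR-148b, and 0.22 and 0.17 for bta-miR-152. With a pseudocount of 10 in place of 1, limma's unadjusted p moved from 0.579 to 0.235 for bta-miR-148b and from 0.759 to 0.432 for bta-miR-152. For bta-miR-148a it moved from 0.130 to 0.0719.

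The study's threshold for EVs asks for an adjusted p of 0.3 or less and a change of at least 1 on the log2 scale. In limma's test 0 of the 3 members met it, as did 0% of the 512 miRNAs. This count thus says nothing particular about the members. The study, which used edgeR, reported bta-miR-1246 and others as enriched in HS-EVs at this threshold, with no member among them. Here edgeR's quasi-likelihood and likelihood ratio tests passed 3 and 6 of the 512, and limma's trend option passed 2. Each of these passed 0 of the 3 members. In limma's main fit, a negative log2 difference was seen for 2 of the 3 members and for 50% of all miRNAs. At an unadjusted p of 0.05 or less, limma gave 0 of the 3 members and 4.88% of all miRNAs. Of its alternatives, 4 gave bta-miR-148a an unadjusted p of 0.05 or less. It was 0.0221 with limma's trend option (4.88% of all miRNAs at that limit), 0.0465 on reads scaled by all miRNA reads (3.32%), 0.00429 without control-EVs replicate 1 (8.4%) and 0.0147 without both libraries numbered 1 (11.3%). Control-EVs and HS-EVs overlapped in each of the 3 members, while 6.45% of all miRNAs had groups that stood clear of each other. On the recovered reads, DESeq2 and edgeR's quasi-likelihood and likelihood ratio tests gave bta-miR-148a unadjusted p-values of 0.0149, 0.0160 and 0.0343 with log2 fold changes of -1.00, -0.96 and -0.96, and adjusted p-values of 0.995, 0.635 and 0.683. The share of miRNAs with an unadjusted p of 0.05 or less was 1.96% in DESeq2 (of 510 with a p), 5.08% in edgeR's quasi-likelihood test and 5.47% in its likelihood ratio test.

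The control-EVs libraries set the size of the difference in bta-miR-148a, which was -0.55 on the log2 scale without control-EVs replicate 2. Without control-EVs replicate 1, the log2 fold change was -1.26 and the adjusted p from limma was 0.366, the smallest of that fit, in which 0% of the miRNAs passed the threshold. Without both libraries numbered 1 it was -1.23 with an adjusted p of 0.296 from limma, which passes the threshold, as did 31 of the 512 miRNAs (6.05%) in that fit, against 0 of 512 with all libraries. Without HS-EVs replicate 1 alone, the library with the large share of bta-miR-1246, it was -0.81.

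The scaling moved the members together. On reads scaled by all miRNA reads of a library, the log2 fold changes were -2.36, -1.76 and -1.38 for bta-miR-148a, bta-miR-148b and bta-miR-152, where the median of all 512 miRNAs was -0.79. On reads scaled by those other than bta-miR-1246 they were -0.72, -0.14 and 0.24, where the median was 0.10. bta-miR-152 was therefore higher in HS-EVs under the deposited scaling and lower under scaling by all reads, while bta-miR-148a and bta-miR-148b were lower under each of these scalings, in no case with an adjusted p of 0.3 or less.

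**Figure D2:**
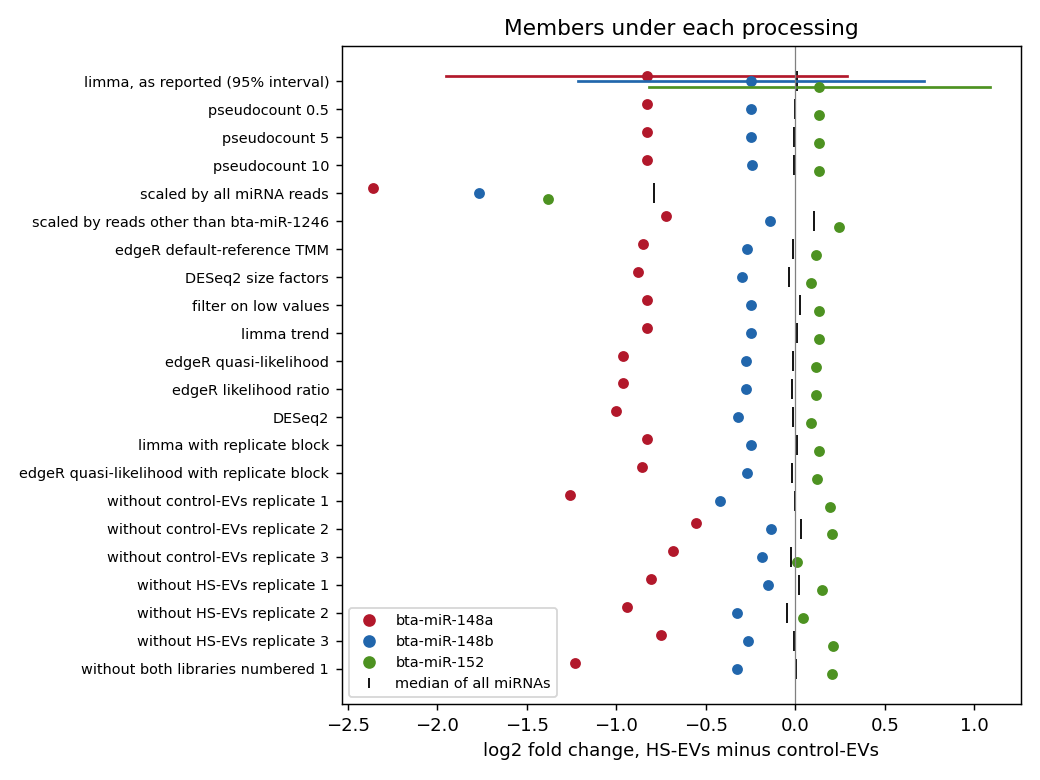
Log2 fold changes (HS-EVs minus control-EVs) of the members under each way of processing, with the 95% interval of limma as reported and a tick for the median of all miRNAs tested. The order bta-miR-148a below bta-miR-148b below bta-miR-152 held under each of them, and scaling by all miRNA reads moved the members and the median (-0.79) to lower values.

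Ratios between members within a library, taken with 0.5 added to each count, do not depend on the scaling. bta-miR-148a had 4.88, 12.7 and 13.9 reads for each read of bta-miR-152 in replicates 1 to 3 of control-EVs, against 4.80, 4.98 and 4.85 for HS-EVs. The 3 HS-EVs libraries and control-EVs replicate 1 were nearly alike, and control-EVs replicates 2 and 3 stood well above them. The log2 ratio averaged 3.25 ± 0.84 (SD, n = 3) at 37 °C against 2.29 ± 0.03 (SD, n = 3) under heat stress, a difference of -0.97 that was within the spread (exact permutation test, two-sided, p = 0.2, adjusted over 3 ratios 0.3; 0.1 is the lowest p that 3 against 3 can give).

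For bta-miR-148a over bta-miR-148b the ratios were 5.03, 9.03 and 8.03 in control-EVs and 5.24, 4.96 and 4.16 in HS-EVs. Again control-EVs replicate 1 lay among the HS-EVs libraries, and the difference of the log2 ratios was -0.58 (exact permutation test, two-sided, p = 0.2, adjusted 0.3). The reads of bta-miR-152 over those of bta-miR-148b gave 1.03, 0.709 and 0.576 in control-EVs and 1.09, 0.997 and 0.859 in HS-EVs, with a difference of the log2 ratios of 0.38 (exact permutation test, two-sided, p = 0.3, adjusted 0.3). Single control-EVs libraries moved this difference the most, to 0.61 without replicate 1 and to 0.19 without replicate 3.

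The make-up of the family shows the same libraries apart. bta-miR-148a held 71.3%, 84.1% and 83.6% of the family's reads in control-EVs and 71.6%, 71.3% and 69.2% in HS-EVs. bta-miR-152 held 6.60% (95% Wilson interval 6.02% to 7.23%) and 5.97% (5.00% to 7.12%) in control-EVs replicates 2 and 3. In the other 4 libraries it held 14.2% to 14.8%, with intervals between 11.9% and 18.3%, so that the intervals of these 4 and of the former 2 did not overlap. Only counting error enters such intervals, and they take the recovered reads as the depth. For bta-miR-148b the share was 14.1%, 9.31% and 10.4% in control-EVs and 13.6%, 14.4% and 16.6% in HS-EVs.

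**Figure D3:**
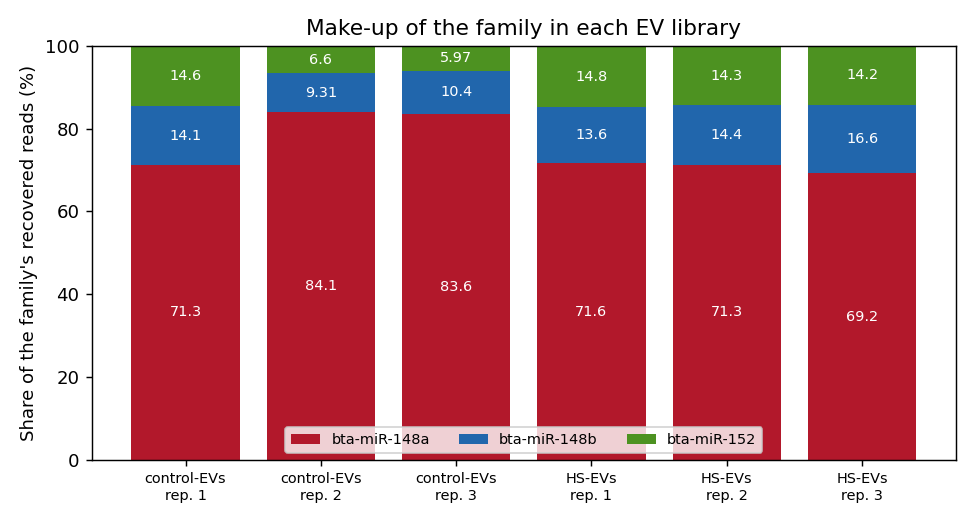
Share (%) of the recovered reads of the family held by each member, as stacked bars for the 6 EV libraries. bta-miR-148a holds 84.1% and 83.6% in control-EVs replicates 2 and 3 and 69.2% to 71.6% in the other 4 libraries, and the share of bta-miR-152 is 6.60% and 5.97% against 14.2% to 14.8%.

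Across the 6 libraries, bta-miR-148a exceeded bta-miR-148b 5.84-fold (mean log2 ratio 2.55 ± 0.44, SD, n = 6) and bta-miR-152 6.82-fold (2.77 ± 0.75, SD, n = 6), each in 6 of 6 libraries (exact sign-flip permutation test, two-sided, p = 0.03125 for both, adjusted over 3 ratios 0.0469). That p is the lowest that 6 libraries can give. It is reached whenever all 6 log2 ratios share a sign, whatever their size. bta-miR-148b and bta-miR-152 were neighbours that did not differ beyond their spread: their log2 ratio, bta-miR-152 over bta-miR-148b, was -0.22 ± 0.36 (SD, n = 6; exact sign-flip permutation test, two-sided, p = 0.219), and bta-miR-152 was higher in 2 of 6 libraries. A mature miRNA gives a read per captured molecule whatever the small differences in length, but the preference of the ligation for some ends was not tested. Summed, the family had 2014, 4533 and 3804 normalized read counts in control-EVs and 1968, 2368 and 1878 in HS-EVs. The difference of the mean log2 sums was -0.66, and it followed bta-miR-148a, the member with most of the reads. It was -1.01 without control-EVs replicate 1 and -0.43 without control-EVs replicate 2.

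Spread was also compared over the 6 libraries with the groups pooled. Among the 130 miRNAs with 10 or more reads in every library, the standard deviation of log2(normalized read count + 1) over the 6 libraries had a median of 0.43. bta-miR-152, at 0.19, ranked 10 from the steadiest and bta-miR-148b, at 0.26, ranked 24. bta-miR-148a, at 0.67, ranked 105. Within HS-EVs the 3 members were about equally steady, with standard deviations of 0.19, 0.18 and 0.17 for bta-miR-148a, bta-miR-148b and bta-miR-152, whereas within control-EVs they were 0.75, 0.30 and 0.22. On reads scaled by those other than bta-miR-1246, bta-miR-148b and bta-miR-152 ranked 8 and 15 and bta-miR-148a ranked 98, whereas on reads scaled by all miRNA reads they ranked 104, 54 and 129. Under scaling by all reads bta-miR-152, at 1.65, stayed below the median spread of 1.71, while bta-miR-148b, at 1.86, lay above it.

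**Figure D4:**
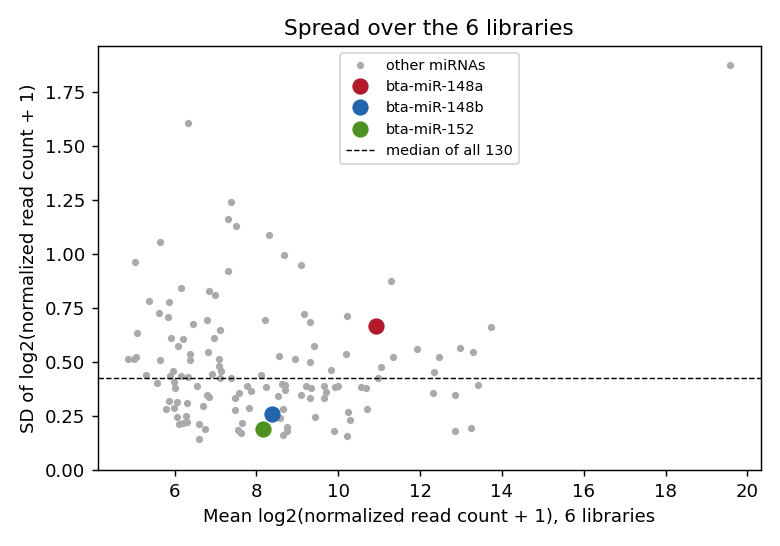
Standard deviation against mean of log2(normalized read count + 1) over the 6 EV libraries, for the 130 miRNAs with 10 or more reads in every library (a point each) with the family's members in colour and the median spread as a dashed line. bta-miR-148b (0.26) and bta-miR-152 (0.19) lie below the median of 0.43 and bta-miR-148a (0.67) above it.

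Likeness between miRNAs was measured by the standard deviation, over the 6 libraries, of the log2 ratio of their reads (0.5 added to each count), where a small value means that they kept a constant ratio. It is a description over libraries that share their depth, and it says nothing of shared control. Of 129 other miRNAs with 10 or more reads in every library, those most like bta-miR-148a were bta-miR-17-5p (0.16), bta-miR-122 (0.30) and bta-miR-25 (0.31), where the median was 0.76. Of the family, bta-miR-148b (0.44) ranked 14 and bta-miR-152 (0.75) ranked 62 of these 129 in likeness to bta-miR-148a.

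bta-miR-17-5p, from a cluster known to promote cell proliferation, had 53.2, 181 and 128 normalized read counts in replicates 1 to 3 of control-EVs, against 69.8, 79.2 and 60.3 for HS-EVs, from 17 to 260 reads. bta-miR-122, the dominant miRNA of liver, had 12232, 25400 and 21351 in control-EVs and 13633, 9840 and 7524 in HS-EVs. In both, as in bta-miR-148a, control-EVs replicates 2 and 3 were the highest of the 6 libraries. The log2 difference of bta-miR-122 was -0.91 (SE 0.49, adjusted p = 0.873 from limma). bta-miR-192, the other liver marker, had 71.6, 87.2 and 92.9 in control-EVs and 65.7, 90.2 and 66.8 in HS-EVs, with overlapping groups and a log2 difference of -0.18 (adjusted p = 0.952 from limma). The part of liver or serum RNA in the values of bta-miR-148a was not tested.

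bta-miR-148b was most like bta-miR-24-3p (0.10), bta-miR-16a (0.11) and bta-miR-93 (0.13), against a median of 0.47. bta-miR-148b stayed between 0.382 and 0.446 reads for each read of bta-miR-24-3p in all 6 libraries. bta-miR-152 was most like bta-miR-450b (0.15), bta-miR-140 (0.19) and bta-miR-99a-5p (0.20), against a median of 0.44, with 3.73 to 5.07 reads for each read of bta-miR-450b. The 9 miRNAs named for likeness were thus different for each member.

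**Figure D5:**
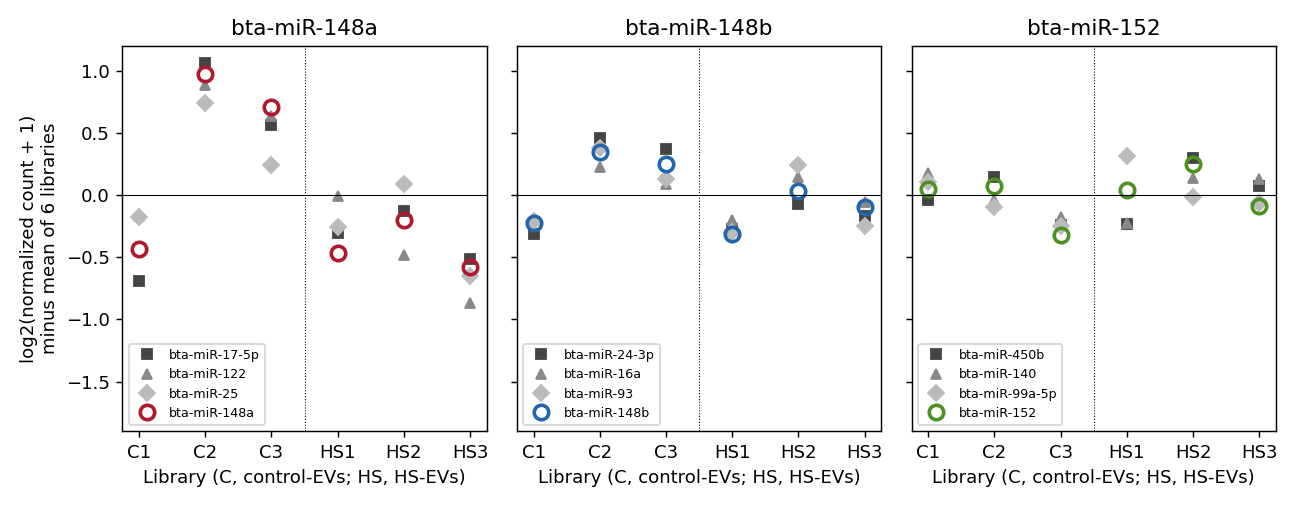
Each member and the 3 miRNAs most like it, as log2(normalized read count + 1) minus the miRNA's own mean over the 6 libraries, with control-EVs (C) left and HS-EVs (HS) right of the dotted line. bta-miR-148a, bta-miR-17-5p, bta-miR-122, bta-miR-25, bta-miR-148b and bta-miR-24-3p are highest in control-EVs replicates 2 and 3. bta-miR-148b and bta-miR-152 stay closer to their means than bta-miR-148a, except for bta-miR-152 in HS-EVs replicate 2 (0.25 against -0.20 for bta-miR-148a).

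DNMT1 and the other DNA methyltransferases are targets of further miRNAs. Of 11 listed miRNAs known to act on these enzymes, 0 passed the threshold in either direction, as did 0% of all 512 miRNAs. Positive log2 fold changes were seen for 8 and negative ones for 3, where 50% of all miRNAs were negative. The median was 0.07 beside 0.01 over all 512. The most abundant were bta-miR-29a, which acts on DNMT3A and DNMT3B, at 1254 ± 279 normalized read counts (SD, n = 3) for control-EVs against 1283 ± 169 (SD, n = 3) for HS-EVs, bta-miR-143 at 420 ± 53.4 against 440 ± 74.3, and bta-miR-101 at 422 ± 27.1 against 383 ± 53.1 (SD, n = 3 in each). At an unadjusted p of 0.05 or less, 1 of the 11 was higher in HS-EVs, as were 2.73% of all miRNAs. It was bta-miR-29b, named after its values were seen, which differed by 1.25 on the log2 scale (SE 0.46, adjusted p = 0.870 from limma), and it was the 1 of the 11 whose groups did not overlap, against 6.45% of all miRNAs.

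Of 24 other miRNAs known to be abundant in bovine milk, 0 were called in either direction, as were 0% of all 512 miRNAs. Of the 24, 13 had positive and 11 negative log2 fold changes, where 50% of all miRNAs were negative, and their median was 0.02. Their summed level was 61093 to 68411 normalized read counts in control-EVs and 60094 to 64230 in HS-EVs, so that the groups overlapped. The most abundant, bta-miR-21-5p, bta-let-7a-5p and bta-miR-423-5p, had log2 fold changes of 0.12, -0.05 and -0.47, and adjusted p-values from limma between 0.873 and 0.974. In 1 of the 24, bta-miR-22-3p, named after its values were seen, every HS-EVs library lay above every control-EVs library, against 6.45% of all miRNAs with groups that did not overlap in either direction. bta-miR-200a, bta-miR-200b, bta-miR-200c and bta-miR-141, which mark epithelial cells such as those of the udder and were named after their values were seen, had means over the 6 libraries of 5.50, 3.80, 1.11 and 0.832 normalized read counts.

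By mean level, each of the blood cell and serum markers was below bta-miR-148a. All 7 fixed markers were listed and 0 were called, as were 0% of all 512 miRNAs. Of the 7, 2 had positive and 5 negative log2 fold changes, where 50% of all miRNAs were negative. The sum of the 7 was 834 to 1623 normalized read counts in control-EVs and 590 to 1101 in HS-EVs. bta-miR-486, an erythroid miRNA and the most abundant of them, had 1226, 599 and 535 in control-EVs and 756, 299 and 380 in HS-EVs. It was highest in control-EVs replicate 1, where bta-miR-148a was lowest of its group. In 1 of the 7, bta-miR-150, a lymphocyte miRNA named after its values were seen, every HS-EVs library lay above every control-EVs library, with 29.4, 18.1 and 25.7 in control-EVs and 45.2, 31.9 and 66.8 in HS-EVs (adjusted p = 0.873 from limma), beside 6.45% of all miRNAs with groups that did not overlap. bta-miR-451, which defines red blood cells and was named after its values were seen, averaged 29.3 ± 9.81 (SD, n = 3) at 37 °C against 29.9 ± 23.9 (SD, n = 3) under heat stress. Of the 5 gonadal and granulosa markers, 0 were called, as were 0% of all 512 miRNAs. These markers summed to 1782 to 2114 in control-EVs and 1134 to 2211 in HS-EVs.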

How the data were processed

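Small RNA libraries with unique molecular identifiers (UMIs) were sequenced from 3 control-EVs and 3 HS-EVs samples. Per the study's methods and the submitters' processing notes, the authors trimmed reads with cutadapt (1.11), collapsed identical UMIs, mapped with Bowtie2 (2.2.2) to UMD3.1 and miRBase, and scaled counts by TMM in edgeR. The deposited values, a normalized signal that is never negative, are counts divided by TMM-scaled library sizes. Within each library each value (100%, tolerance 0.001) was a whole multiple of the smallest nonzero value, which was taken as 1 read. If the rarest miRNA had more than 1 read, the recovered reads are too low by that factor.

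limma (3.58.1, R 4.3.3) was fitted to log2(normalized read count + 1) of all 512 miRNAs, without filter or block, so that fold changes of rare miRNAs are understated. Alternatives were edgeR (4.0.16) and DESeq2 (1.42.0) on recovered reads, other pseudocounts, scalings, a filter, a replicate block and leaving libraries out. Ratios between members used reads + 0.5 and exact permutation tests (scipy 1.17.1). The fits were also run on simulated data, with changes larger than those of the members under the deposited scaling. Such runs do not show whether differences of the members' size could be found. All 15 pairs of libraries differed beyond sampling noise (chi-square per degree of freedom 18.8 to 2008). Same-numbered libraries were not treated as pairs, since no source links them. The correlations of their deviations from the group means were 0.14, 0.14 and 0.08. These are positive and do not exclude a link, and fits with a replicate block are given below.

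The members and lists were chosen with earlier results of these data known. Named were the members, the 3 miRNAs most like each by the standard deviation of the log2 ratio, up to 3 of each list by mean level, and bta-miR-1246; others are marked as named after their values were seen. Matching by shared seed was not done.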

Additional observations from a re-analysis of the deposited data

How the results depend on the processing

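The log2 fold change of bta-miR-148a kept its direction under each of the 21 alternatives (-2.36 to -0.55), as did that of bta-miR-148b (-1.76 to -0.14). That of bta-miR-152 turned to -1.38 on reads scaled by all miRNA reads, where the summed level of the family moved from -0.66 to -2.19, with the median of all miRNAs at -0.79. The number of members past the threshold was 0 in each alternative but 1, which left out both libraries numbered 1 and called bta-miR-148a (-1.23). Leaving out the libraries singly gave log2 fold changes between -1.26 and -0.55 for bta-miR-148a, -0.42 and -0.14 for bta-miR-148b, and 0.01 and 0.21 for bta-miR-152. It gave -1.01 to -0.43 for the summed level, and for the differences between groups in the log2 ratios -0.84 to -0.41 (bta-miR-148a to bta-miR-148b), -1.45 to -0.69 (bta-miR-148a to bta-miR-152) and 0.19 to 0.61 (bta-miR-152 to bta-miR-148b). The log2 ratios of bta-miR-148a to bta-miR-148b and to bta-miR-152 stayed between 2.42 and 2.64 and between 2.56 and 2.87, and were 2.64 and 3.02 without both libraries numbered 1. The exact test cannot pass 0.05 with so few libraries.

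With the replicate number as a block, limma gave bta-miR-148a -0.83 with an adjusted p of 0.835, and edgeR's quasi-likelihood test gave -0.86 with an adjusted p of 0.375. No member changed its call, and over all miRNAs limma made 0 calls with or without the block and edgeR 8 with and 3 without. Values were coarsest in HS-EVs replicate 1, where 3 reads were worth 12.3 normalized read counts and bta-miR-148b and bta-miR-152 had 65 and 71 reads.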
